A study of Mus musculus with 32 samples.

Results

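Leydig cells are the steroid-making cells of the testis, and 10 genes of their hormone synthesis were followed here: Lhcgr, Nr5a1, Star, Cyp11a1, Hsd3b1, Hsd3b6, Cyp17a1, Hsd17b3, Srd5a1 and Insl3. They were listed by symbol, mapped to Ensembl identifiers with the GENCODE annotation, and all 10 were among the 20368 genes of the deposited juvenile gene table and among the genes of the adult table. The samples were testicular germ cell preparations of male C57BL/6J mice, an inbred strain, with no mutation or treatment in any group. Each juvenile sample came from 1 mouse. The youngest group, 8 days post-partum (dpp), held 3 mice and the groups of 10, 12, 14, 16 and 18 dpp held 5 mice each, 28 in all. Mice are called by the numbers in their labels, which are 1, 2, 3, 6 and 7 at 14 dpp. Another 4 samples were adult pachytene and diplotene spermatocytes, enriched by sedimentation and each drawn from a pool of 6 mice of 9 weeks. Tubules were washed to remove interstitial cells before the germ cells were released, and Leydig cells are interstitial, so the preparation was meant to leave them behind. Which cells gave each transcript was not tested. Expression is given as TPM, a relative level corrected for transcript length, so that levels of different genes can be compared. The number of reads behind each value is unknown, so the error given is the spread between mice.

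Testosterone is made from cholesterol in a fixed order of steps. Luteinizing hormone acts on its receptor, Lhcgr, and raises cyclic AMP. Star then carries cholesterol to the inner mitochondrial membrane, where Cyp11a1 cuts its side chain to give pregnenolone. The 3-beta-hydroxysteroid dehydrogenases Hsd3b1 and Hsd3b6 and the 17-alpha-hydroxylase Cyp17a1 lead from there to androstenedione, and Hsd17b3 reduces androstenedione to testosterone. Srd5a1 reduces testosterone further to dihydrotestosterone. Insl3, a peptide hormone of Leydig cells, acts in descent of the testis, and Nr5a1 (steroidogenic factor 1) is the nuclear receptor that binds promoters of many steroid genes. In the mouse a fetal population of Leydig cells gives way after birth to an adult population. Hsd3b6 is known as the isoform of the adult population, whereas Hsd17b3 is made by Sertoli cells in the fetal testis and by Leydig cells in the adult. Nr5a1 is also made by Sertoli cells.

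All 10 genes had a TPM above 0 in all 28 juvenile mice, and the genes took separate courses with age. Between the youngest and the oldest juvenile mice Hsd3b6 rose from a mean of 0.52 ± 0.449 TPM (SD over 3 mice) to one of 46.7 ± 24.5 TPM (SD over 5 mice), while Hsd17b3 fell from 61.2 ± 2.00 to 6.87 ± 2.53 TPM. Srd5a1, Insl3, Hsd3b1 and Lhcgr also rose between these ages, Nr5a1 also fell, and Star, Cyp11a1 and Cyp17a1 did not pass the test, so that 7 of the 10 genes were called (limma on log2(TPM + 1), Benjamini-Hochberg adjusted p under 0.05 over all 20368 genes). Among all genes tested, 68.2% were called between 8 and 18 dpp, 31.8% as higher and 36.3% as lower at 18 dpp. The 7 genes also differed among the 6 ages by the moderated F test, where the share of all genes called was 77.6%. Both shares of the members were near those of all genes. Every mouse of 18 dpp was above every mouse of 8 dpp for Hsd3b6 and Srd5a1, an order that 29.0% of all genes had, and below for Nr5a1 and Hsd17b3, which 32.0% of all genes had; the other 6 members overlapped. The calls of Nr5a1, Hsd3b6, Hsd17b3 and Srd5a1 were kept under all 39 alternatives tried, whereas those of Lhcgr, Hsd3b1 and Insl3 were lost under 9 or 10 of them. In samples of mixed cells, fewer cells of a type and less RNA per cell cannot be told apart.

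**Figure D1:**
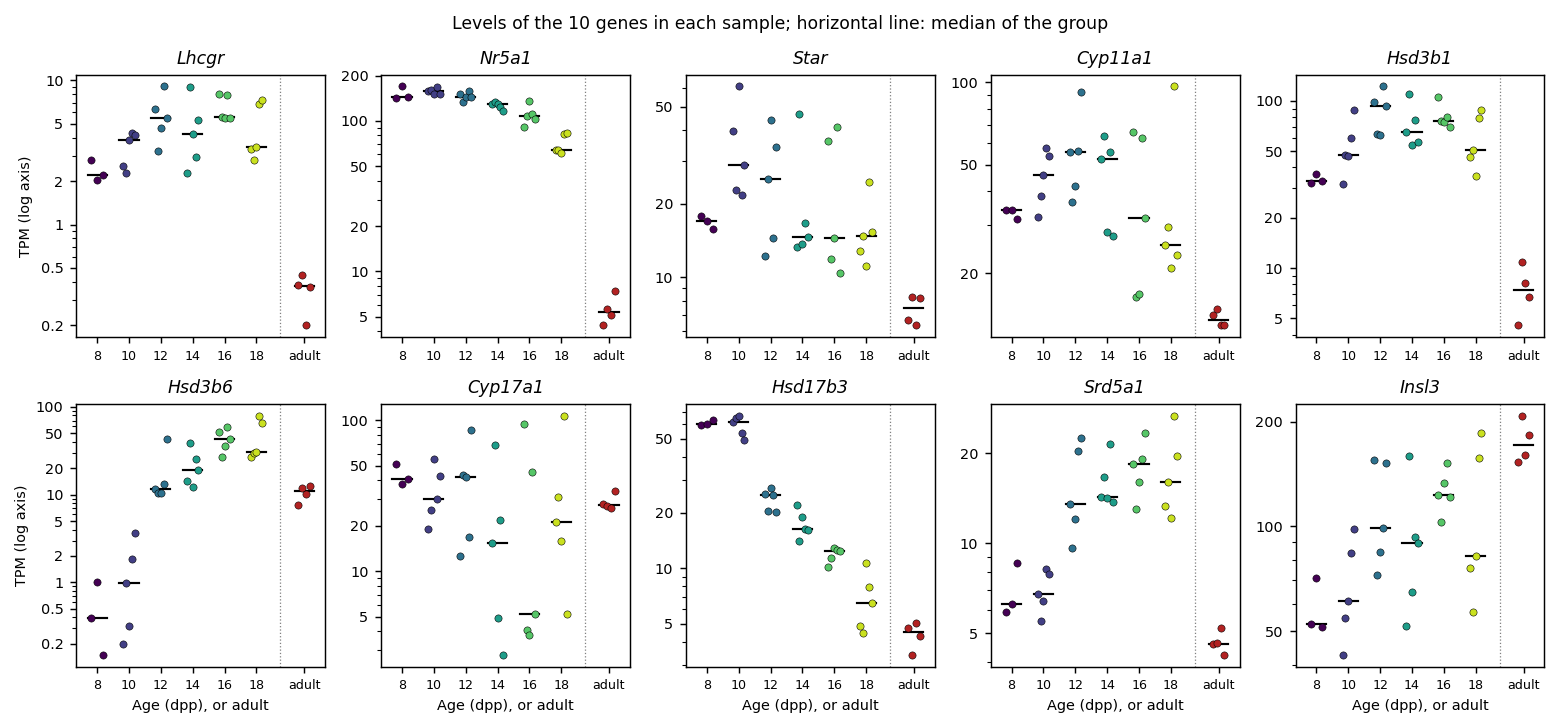
TPM of each gene on a log axis against age in dpp, with the adult samples to the right of the dotted line; each point is 1 mouse or adult pool and each line the group median. Hsd3b6 climbs and Hsd17b3 falls with age, while the mice of one age spread widely for Cyp17a1, from 3.76 to 94.6 TPM at 16 dpp.

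The genes lie on 7 chromosomes of GRCm38, with Hsd3b1 (chr3:98852194-98859794) and Hsd3b6 (chr3:98805504-98814443) in the same cluster on the minus strand of chromosome 3. Upstream sequence is shown for every member for which RefSeq gave it. Each line runs from 250 to 51 bases before the transcription start that RefSeq gives on GRCm38.p6, 5′ to 3′ on the strand of the gene. Capitals mark TCAAGG or its reverse complement CCTTGA, a core of the sites that Nr5a1 is known to bind.
Lhcgr (chr17:88792065-88792264, minus strand): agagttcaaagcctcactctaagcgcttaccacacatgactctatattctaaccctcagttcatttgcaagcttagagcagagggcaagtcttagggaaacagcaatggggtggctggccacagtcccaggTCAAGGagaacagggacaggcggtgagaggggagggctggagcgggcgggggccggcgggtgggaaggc
Cyp11a1, upstream start (chr9:57997774-57997973, plus strand): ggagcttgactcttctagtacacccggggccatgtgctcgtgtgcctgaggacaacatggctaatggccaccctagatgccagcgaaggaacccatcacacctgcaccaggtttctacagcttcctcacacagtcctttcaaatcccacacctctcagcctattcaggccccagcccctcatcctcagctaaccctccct
Cyp11a1, downstream start (chr9:58014702-58014901, plus strand): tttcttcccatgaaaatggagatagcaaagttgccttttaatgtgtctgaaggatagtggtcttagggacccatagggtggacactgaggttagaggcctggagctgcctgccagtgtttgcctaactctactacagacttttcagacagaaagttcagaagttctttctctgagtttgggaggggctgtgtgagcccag
Hsd3b1 (chr3:98859845-98860044, minus strand): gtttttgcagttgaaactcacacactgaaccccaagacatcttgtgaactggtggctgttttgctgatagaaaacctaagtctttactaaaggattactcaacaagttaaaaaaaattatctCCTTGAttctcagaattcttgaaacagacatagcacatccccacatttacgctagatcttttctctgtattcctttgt
Hsd3b6 (chr3:98814494-98814693, minus strand): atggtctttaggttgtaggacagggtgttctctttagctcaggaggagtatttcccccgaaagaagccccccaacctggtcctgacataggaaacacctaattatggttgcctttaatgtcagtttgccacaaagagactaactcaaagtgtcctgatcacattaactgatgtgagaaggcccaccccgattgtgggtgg
Hsd17b3 (chr13:64089252-64089451, minus strand): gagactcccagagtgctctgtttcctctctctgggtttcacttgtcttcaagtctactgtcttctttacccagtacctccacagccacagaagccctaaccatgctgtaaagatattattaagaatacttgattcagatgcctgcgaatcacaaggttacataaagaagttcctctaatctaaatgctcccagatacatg
Srd5a1 (chr13:69611514-69611713, minus strand): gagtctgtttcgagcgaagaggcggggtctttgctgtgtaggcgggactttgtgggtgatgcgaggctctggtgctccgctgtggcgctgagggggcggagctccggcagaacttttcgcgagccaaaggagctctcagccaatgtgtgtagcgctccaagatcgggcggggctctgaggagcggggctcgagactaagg
Insl3 (chr8:71689002-71689201, plus strand): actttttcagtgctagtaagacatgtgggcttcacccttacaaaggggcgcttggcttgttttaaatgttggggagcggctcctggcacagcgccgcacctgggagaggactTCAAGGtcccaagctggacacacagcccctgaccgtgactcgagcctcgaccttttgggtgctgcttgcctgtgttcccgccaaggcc
Of these 8 stretches, those of Lhcgr, Hsd3b1 and Insl3 hold the 6 letters and the other 5 do not. Neither Cyp11a1 stretch adjoins the start of that gene in the GENCODE annotation (chr9:58006411). One lies well before it and the other inside the gene, so the sequence just before that start was not examined.

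RefSeq gave such windows, 300 bases long with the start included, for 7 of the 10 genes, with a second window for Cyp11a1, and TCAAGG or CCTTGA was in 4 of these 8 windows. Those were the windows of Lhcgr, Hsd3b1 and Insl3 and the downstream window of Cyp11a1. In the latter the match began at position 3 after the start, inside the annotated gene. TCAAGG or CCTTGA was in 14.44% of the 32851 promoter windows of that length in the table. The longer motif AAGGTCA, searched on both strands, was in none of the 8 windows and in 4.72% of all windows. A match of letters is a description of the sequence and says nothing of binding in these cells. Star, Cyp17a1 and Nr5a1 had no window.

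The receptor of the pathway was low throughout. Lhcgr (chr17:88716481-88791990) was at 2.81, 2.04 and 2.21 TPM in the 3 mice of 8 dpp and at 3.33, 2.79, 3.43, 6.83 and 7.31 TPM in mice 1 to 5 of 18 dpp. Mice 4 and 5 of 18 dpp stood above the other 3, and the lowest mouse of 18 dpp was within the range of 8 dpp. The log2 fold change from 8 to 18 dpp was 0.70 ± 0.30 (SE, adjusted p = 0.0434, limma), and it was no longer called without any 1 of the 3 mice of 8 dpp or without mouse 4 or 5 of 18 dpp, when the adjusted p lay between 0.0518 and 0.122. At the ages between, single mice ranged from 2.26 to 9.04 TPM.

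Nr5a1 (chr2:38692656-38714542), the transcription factor, was the most abundant of the 10 at every age up to 14 dpp and fell later. Its mean was 152 ± 15.4 TPM in the youngest mice (SD, n = 3), and in the 5 later groups, in order of age, 157 ± 6.96, 147 ± 9.11, 127 ± 7.15, 109.8 ± 15.9 and 70.9 ± 10.8 TPM (SD, n = 5 each). Levels at 8, 10 and 12 dpp overlapped, whereas every mouse of 18 dpp, between 61.3 and 82.9 TPM, was below every mouse of 16 dpp, between 91.8 and 135 TPM. The fall from 16 to 18 dpp was called (log2 fold change -0.62 ± 0.09, SE, adjusted p = 3.8e-06, limma), and that from 8 to 18 dpp was -1.09 ± 0.10 (adjusted p = 3.4e-10, limma). The summed TPM of 10 Sertoli cell markers was lower at 18 than at 8 dpp, going from between 7605 and 8650 in the mice of 8 dpp to between 3648 and 4823 in those of 18 dpp; 8 of the markers fell and 2, Rhox5 (0.85) and Gata1 (0.62), rose (limma). Among mice of one age, Nr5a1 followed that sum more closely than any other list or member, with r = 0.86 (28 mice, age means removed, adjusted permutation p = 0.0024). It spread less between mice of one age than most genes, with an SD of 0.14 on the log2 scale (percentile 25.8 of all genes tested).

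For the first 2 steps, Star and Cyp11a1, no difference between ages was called, and mice of one age differed strongly. Star (chr8:25806555-25815982) was at 17.7, 17.02 and 15.8 TPM in the mice of 8 dpp. In mice 1 to 5 of 10 dpp it was at 39.9, 22.8, 60.6, 21.8 and 28.8 TPM, all above the mice of 8 dpp. From 12 dpp on, low and high mice stood side by side, as at 16 dpp with 36.3, 11.9, 14.4, 41.3 and 10.4 TPM in mice 1 to 5. At 14 dpp mouse 2 reached 46.6 TPM while the other 4 mice were between 13.3 and 16.7 TPM. The 10 dpp level was 0.90 ± 0.45 above that of 8 dpp on the log2 scale (SE), which was not called (adjusted p = 0.447, limma), and the F test over the 6 ages gave an adjusted p of 0.171. Its means were 16.9 ± 0.975 TPM (SD, n = 3) in the youngest and 15.7 ± 5.20 TPM (SD, n = 5) in the oldest juvenile group.

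Cyp11a1 (chr9:58006411-58027023), the side-chain cleavage enzyme, was at 34.2, 34.0 and 31.6 TPM at 8 dpp. At 16 dpp mice 1 to 5 had 66.0, 16.3, 16.8, 62.4 and 31.9 TPM, and at 18 dpp 25.4, 29.6, 20.8, 96.6 and 23.3 TPM. Mouse 4 of 18 dpp was thus far above the other mice of its age, and mice 1 and 4 of 16 dpp stood apart from mice 2 and 3. The log2 change from 8 to 18 dpp was -0.04 ± 0.44 (SE, adjusted p = 0.949, limma), and no step between neighbouring ages was called. The same-strand gene Gm17322, which overlaps Cyp11a1, was at 1.05 to 4.07 TPM in the juvenile mice.

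The 3-beta-hydroxysteroid dehydrogenases changed in their proportion. Hsd3b6, the isoform known from adult Leydig cells, was at 0.39, 1.02 and 0.15 TPM in the mice of 8 dpp and at 0.20, 0.99, 0.32, 1.85 and 3.61 TPM in mice 1 to 5 of 10 dpp. At 12 dpp the 5 mice had 11.51, 10.6, 10.4, 13.3 and 42.7 TPM. Every mouse of 12 dpp was above every mouse of 10 dpp, and mouse 5 of 12 dpp was far above the other 4. The step from 10 to 12 dpp was 2.92 ± 0.39 on the log2 scale (SE, adjusted p = 4.4e-06, limma). Means of the 3 later groups were 22.1 ± 10.6, 43.4 ± 12.8 and 46.7 ± 24.5 TPM (SD, n = 5 each), and none of these later steps was called. That from 14 to 16 dpp, 1.01 ± 0.39 (SE, adjusted p = 0.0635, limma), was called under 6 of 38 alternatives, with an adjusted p from 0.0147 to 0.178 over all of them. From 8 to 18 dpp the log2 fold change was 4.87 ± 0.46 (SE, adjusted p = 3.8e-10, limma), a fold of 29.2 on the TPM + 1 scale, and it was called under all 39 alternatives tried. On that scale the fold of a gene near 0 TPM is understated.

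Hsd3b1 (32.3, 36.8 and 33.1 TPM at 8 dpp) was already present at the start. Mice of 10 dpp had 55.0 ± 21.2 TPM on average, those of 12 dpp 88.0 ± 25.1 TPM and those of 18 dpp 60.02 ± 22.7 TPM (SD, n = 5 each). The rise from 10 to 12 dpp was 0.70 ± 0.24 (SE, adjusted p = 0.0406, limma) and that from 8 to 18 dpp 0.72 ± 0.28 (adjusted p = 0.0258). Both calls were unstable. The first was not called without mouse 1, 2 or 3 of 10 dpp or mouse 1, 4 or 5 of 12 dpp (adjusted p 0.0796 to 0.149). It was also lost without the filter on low values (adjusted p = 0.123, limma) and without the variance trend (0.0527). The second was not called without mouse 1 or 3 of 8 dpp or mouse 4 or 5 of 18 dpp (adjusted p 0.0648 to 0.0777). It was lost under 5 further alternatives.

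Of the TPM of both isoforms, Hsd3b6 made up 1.45% ± 1.145 in the youngest mice (SD, n = 3), and in the 5 later groups, in order of age, 2.05% ± 1.44, 16.0% ± 8.89, 22.6% ± 3.99, 34.4% ± 6.19 and 42.7% ± 5.84 (SD, n = 5 each). No test was made of this share. The mice of 8 and 10 dpp, between 0.451% and 3.91%, were all below those of 12 dpp, between 9.84% and 31.5%. Their main transcripts were 82.24% identical over 1768 aligned bases, and their longest identical run was 72 bases, shorter than a 100 base read. No window of 100 bases was shared between Hsd3b1 and another gene. Hsd3b6 shared 3.29% of its windows with Hsd3b2 and Hsd3b3, which were at no more than 0.24 TPM.

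Cyp17a1 (chr19:46667165-46673172), which makes androgens from pregnenolone and progesterone, varied more between mice of one age than almost any gene measured. At 8 dpp the 3 mice were at 51.3, 37.6 and 41.0 TPM. In mice 1, 2, 3, 6 and 7 of 14 dpp it was at 15.3, 68.0, 4.93, 21.7 and 2.80 TPM, and in mice 1 to 5 of 16 dpp at 94.6, 4.10, 3.76, 45.1 and 5.20 TPM. At 16 dpp 2 mice were thus high and 3 were low, with a 25.2-fold ratio between the highest and the lowest. At 18 dpp the levels were 21.1, 30.9, 15.8, 107 and 5.19 TPM, again with mouse 4 far above the rest. The SD between mice of one age was 1.39 on the log2 scale, at percentile 99.8 of all genes tested, against a median of 0.21 over all genes and of 0.48 over the 10 members. The log2 change from 8 to 18 dpp was -0.87 ± 0.93 (SE, adjusted p = 0.415, limma), and the F test over the ages gave an adjusted p of 0.355. Hsd3b6, Star and Cyp11a1 followed with SDs of 0.68, 0.66 and 0.66.

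Hsd17b3 (chr13:64058266-64089230), the enzyme of the last step to testosterone, fell in steps and spread less between mice than the other members except Nr5a1, with an SD within ages of 0.25 on the log2 scale (percentile 58.1 of all genes tested). It was at 59.6, 60.6 and 63.4 TPM at 8 dpp and at 61.5, 64.6, 66.8, 54.1 and 49.1 TPM at 10 dpp. At 12 dpp all 5 mice lay between 20.1 and 27.1 TPM, below every younger mouse. The step from 10 to 12 dpp was -1.30 ± 0.15 on the log2 scale (SE, adjusted p = 4.0e-07, limma). The 3 later groups had means of 17.4 ± 3.03, 11.9 ± 1.09 and 6.87 ± 2.53 TPM (SD, n = 5 each). The steps from 14 to 16 dpp (-0.51 ± 0.15, adjusted p = 0.0145) and from 16 to 18 dpp (-0.76 ± 0.15, adjusted p = 1.4e-04) were also called by limma, the former not without mouse 1 of 14 dpp (adjusted p = 0.051). From 8 to 18 dpp the change was -3.04 ± 0.17 (adjusted p = 2.4e-14, limma). Its 2 transcripts, Hsd17b3-202 and Hsd17b3-201, took 76.8% and 23.2% of its TPM over all mice, but in single mice either one took from 0 to 100%, so only the gene total is used here.

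Srd5a1 (chr13:69573449-69611442) rose at the same step at which Hsd17b3 fell. Its 8 mice of 8 and 10 dpp lay between 5.50 and 8.61 TPM and the 5 mice of 12 dpp between 9.64 and 22.5 TPM, without overlap. The step was 1.01 ± 0.20 (SE, adjusted p = 6.5e-04, limma), and from 8 to 18 dpp the log2 fold change was 1.19 ± 0.24 (adjusted p = 6.6e-05). From 12 dpp on its means were between 15.6 and 18.0 TPM and overlapped between ages. Of its 100-base windows 14.9% are shared with Gm17108, a gene on the same strand at 0.59 to 5.6 TPM.

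Insl3 (chr8:71689214-71690575) was at 52.2, 71.0 and 51.5 TPM at 8 dpp, 58.3 ± 11.0 TPM on average (SD, n = 3). At 18 dpp the mice had 75.8, 56.9, 82.4, 158 and 185 TPM. Mice 4 and 5 were again apart from mice 1 to 3, and mouse 2 was within the range of 8 dpp. The log2 fold change was 0.80 ± 0.34 (SE, adjusted p = 0.0415, limma), and it was not called without mouse 1 or 3 of 8 dpp or without mouse 4 or 5 of 18 dpp (adjusted p 0.107 to 0.126). The step from 10 to 12 dpp, 0.72 ± 0.30, was not called (adjusted p = 0.0877, limma). Insl3 shares 58.2% of its 100-base windows with Jak3, which overlaps it on the same strand, so reads there could be assigned to either. Jak3 was at 0.68 to 3.30 TPM.

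Changes were concentrated at few steps. From 10 to 12 dpp 4 of the 10 genes were called (Hsd3b1, Hsd3b6 and Srd5a1 higher and Hsd17b3 lower), against 21.4% of all genes (12.0% higher and 9.39% lower). No member was called from 8 to 10 dpp, where 1.2% of all genes were called (0.977% higher and 0.226% lower), or from 12 to 14 dpp, where 0.172% were (0.157% higher and 0.0147% lower). At an unadjusted p under 0.05 in limma, the first of these steps held 1 member (Hsd3b1, higher) and the second 2 (Nr5a1 and Hsd17b3, lower), and no other tool was run. From 14 to 16 dpp 1 was called (Hsd17b3) against 24.0% of all genes (12.7% higher and 11.3% lower), and from 16 to 18 dpp 2 (Nr5a1 and Hsd17b3, both lower) against 54.0% (23.4% higher and 30.6% lower). No label names a sequencing run or pool. The 13 barcodes of the 3 younger ages recur in 13 of the 15 libraries of the 3 older ages, and whether the ages were run apart is not given in the sources used here, so its part in the steps was not tested.

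**Figure D2:**
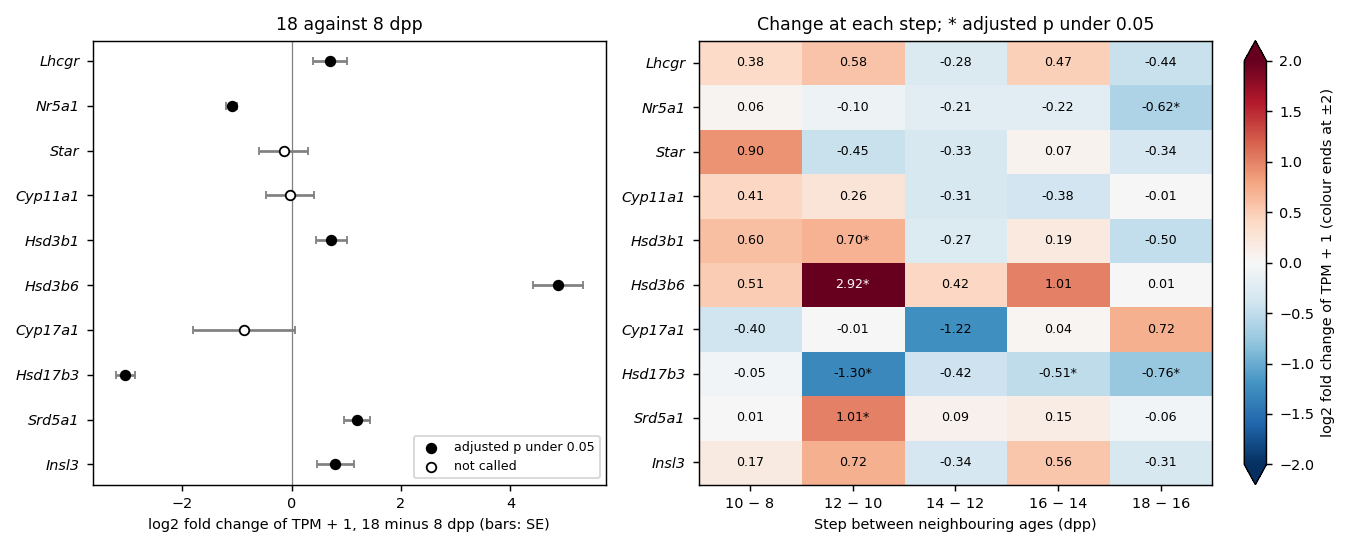
Left, log2 fold change of TPM + 1 from 8 to 18 dpp with its SE, filled where the adjusted p was under 0.05; right, the change at each step between neighbouring ages, by colour and number, with called steps starred. The called changes are largest for Hsd3b6 (4.87) and Hsd17b3 (-3.04), and 4 of the 7 starred steps are from 10 to 12 dpp.

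Mice of one age that had more of one steroid gene often had more of another. How often this holds for other genes was not tested, so the counts that follow describe these genes only. After each age's mean was removed, 35 of the 45 pairs of members had r above 0, and 15 pairs, all positive, had an adjusted p under 0.05 (Pearson, 100000 permutations within ages, two-sided, adjusted over 105 relations). By Spearman's rho 15 pairs also passed, but not all the same ones. Hsd3b6 and Cyp17a1 passed by Pearson's r only (rho = 0.31, adjusted permutation p = 0.25). Cyp11a1 and Insl3 passed by Spearman's rho only (rho = 0.50, adjusted permutation p = 0.037). Lhcgr, Hsd3b1, Hsd3b6 and Insl3 were correlated in each of their 6 pairs, with r between 0.55 and 0.82, and they were 1 of 3 sets of 4 members of which this held; Srd5a1 was in the other two, with Cyp11a1 or Insl3 beside Hsd3b1 and Hsd3b6. In the 10 later-numbered mice, 5 of the 6 pairs of Lhcgr, Hsd3b1, Hsd3b6 and Insl3 had r between -0.58 and 0.05, and Hsd3b6 with Insl3 had 0.87. At 10 and 18 dpp both later-numbered mice were above mice 1 to 3 for each of these 4 genes. At 12 dpp this held for Hsd3b6 only, and at 14 and 16 dpp for none of them. Permutation within ages treats both sets of mice as exchangeable, so a difference in level between them enters r. The part of such a difference was not tested. Star passed with Cyp17a1 only, and Nr5a1 and Hsd17b3 passed with no member. Within mice 1 to 3 of each age alone (18 mice) none of the 45 pairs passed, although 12 of these 15 pairs kept r above 0.5.

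By Pearson's r the closest pairs were Hsd3b6 with Insl3, Cyp11a1 with Cyp17a1 and Star with Cyp17a1. Hsd3b6 and Insl3 had r = 0.82 and rho = 0.85 (adjusted permutation p = 0.0021 for both), r = 0.83 without the 2 mice farthest from the median, 0.72 in mice 1 to 3 (18 mice) and 0.87 in the later-numbered mice (10 mice). Cyp11a1 and Cyp17a1 had r = 0.81 and rho = 0.73 (adjusted permutation p = 0.0026 and 0.0062), 0.75 without the 2 farthest mice, 0.84 in mice 1 to 3 and 0.98 in the later-numbered mice. For Star and Cyp17a1 r was 0.77 and rho 0.71 (adjusted permutation p = 0.0026 and 0.0052), 0.71 without the 2 farthest mice, and 0.84 and 0.79 in the same sets. The mouse with the most Cyp17a1 was also the one with the most Cyp11a1 at 5 of the 6 ages and with the most Star at 4. Other pairs differed in r between these sets of mice, which was not tested: Lhcgr and Insl3 had r = 0.82 in mice 1 to 3 and -0.32 in the later-numbered mice, and Hsd3b1 and Insl3 had 0.70 and 0.01. Every r of the later-numbered mice, high or low, rests on a single difference per age.

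**Figure D3:**
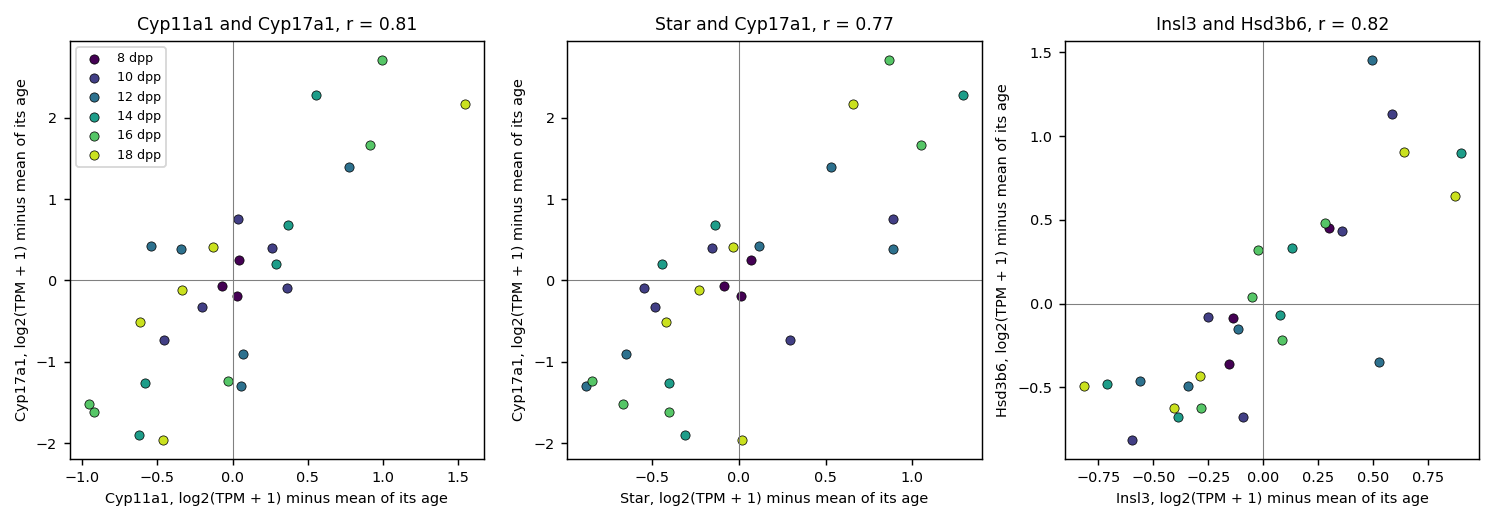
Each point is 1 of 28 mice; axes give log2(TPM + 1) minus the mean of the mouse's age, with colour for age. Mice above their age mean for Cyp11a1, Star or Insl3 lie mostly above it for the second gene, with r of 0.81, 0.77 and 0.82.

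Transcripts of other somatic cells moved with some of these genes and not with others. Summed TPM of 5 stromal and Leydig progenitor markers (led by Dcn and Col1a1) correlated with 5 members: Insl3 and Hsd3b1 (r = 0.77 for both), Lhcgr (0.65), Hsd3b6 (0.64) and Srd5a1 (0.51). The endothelial list (led by Cdh5 and Pecam1) passed with the same 5 members, the peritubular list (led by Acta2 and Tagln) with Insl3, Hsd3b6 and Srd5a1 (r 0.56 to 0.74), the macrophage list (led by Lyz2 and C1qb) with Insl3, Hsd3b1 and Lhcgr (0.57 to 0.75), the red blood cell list (led by Hbb-bs and Hba-a2) with Hsd3b1 (0.47), and the Sertoli list (led by Clu and Inha) with Nr5a1. Star, Cyp11a1 and Cyp17a1 passed with none of the 6 lists, and their r with the stromal list was 0.09, 0.31 and 0.02. In all, 18 of 60 relations between a member and a list had an adjusted permutation p under 0.05. Other genes were not set against the lists, so no share over all genes stands beside this count. At 18 dpp, where mice 4 and 5 had the most Insl3 and Lhcgr, the stromal list summed to 304, 295, 249.1, 480.1 and 569.7 TPM in mice 1 to 5, and was thus also highest in mice 4 and 5. The stromal list was not alone in this. The Sertoli, peritubular, macrophage, endothelial and spermatogonium lists were also highest in mice 4 and 5, the red blood cell list in mouse 5 only. Spermatocyte markers (led by Ldhc and Sycp3) were lowest there, at 3324.8 and 3268.5 TPM against 4949.8 to 5057.8 TPM in the other mice of 18 dpp. The part of these list differences, and of the other somatic cells, in the members' levels was not tested.

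**Figure D4:**
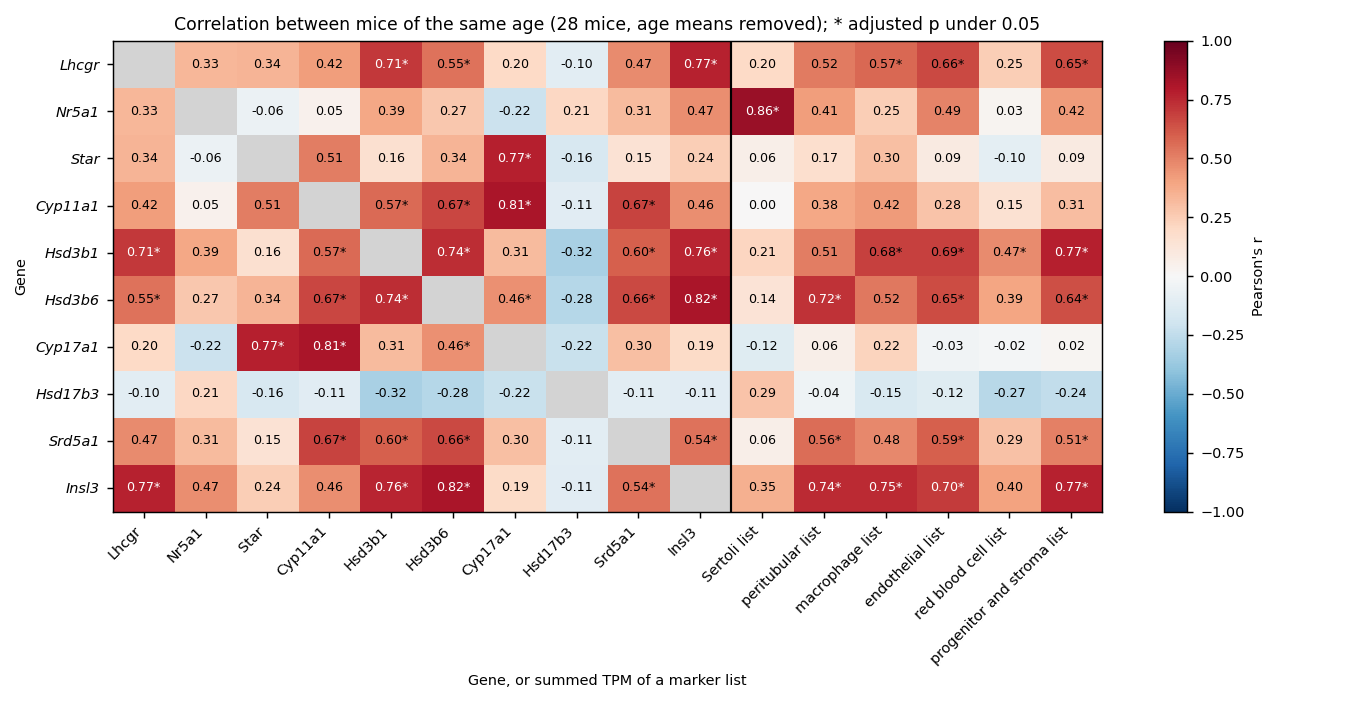
Pearson's r between mice of the same age (28 mice, age means removed) for each pair of the 10 genes and, right of the black line, of each gene with 6 summed marker lists; stars mark an adjusted permutation p under 0.05. Lhcgr, Hsd3b1, Hsd3b6 and Insl3 are red with each other and with the stromal and endothelial lists, Cyp17a1 with Star, Cyp11a1 and Hsd3b6, and Nr5a1 with the Sertoli list.

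Genes outside the list were ranked by their likeness to the mean of Star, Cyp11a1, Cyp17a1, Hsd3b1 and Insl3 over the 28 mice, with age means removed. The 10 closest were Aqp2 (r = 0.91), Ass1 (0.89), Oxtr (0.86), Csrp2 (0.84), Pcsk5 (0.83), Gm10335 (0.81), Iqgap2 (0.81), Ntrk2 (0.81), Tmem159 (0.80) and Heg1 (0.80). Aqp2, a water channel, ranged from 1.98 to 16.7 TPM. Ass1, argininosuccinate synthase, ranged from 19.3 to 83.7 TPM, and Oxtr, the oxytocin receptor, from 1.01 to 4.87 TPM. Gm10335 averaged only 0.30 TPM. Among the members themselves, Cyp11a1 had r = 0.88 to this mean and Hsd3b6, which was not part of it, 0.79, whereas Nr5a1 had 0.16 and Hsd17b3 -0.24. These are the highest of 20368 genes and are given as a description.

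Other genes of steroid synthesis and of Leydig hormone action mostly fell between 8 and 18 dpp. Of a list of 51 such genes, 41 were in the gene table; 27 fell, 4 rose and 10 were not called by limma, where 36.3% of all genes fell and 31.8% rose, and their median log2 change was -0.46, against -0.09 over all genes. Cholesterol supply had 10 of 12 genes lower and 1 higher, Lipe (0.44), a lipase of cholesteryl esters. Scarb1, a receptor for high-density lipoprotein, fell by 0.85 ± 0.11 on the log2 scale (SE, adjusted p = 7.4e-08, limma), from 240.1 to 135 TPM on average. Npc1 and Stard4 both fell by 0.86, and Tspo, a mitochondrial membrane protein, by 0.36. Among the 5 electron carriers of the steroid cytochromes Fdx1, the ferredoxin that serves Cyp11a1, was higher (0.61 ± 0.23, adjusted p = 0.0208, limma) and Cyb5b was higher (0.20), Cyb5a was lower (-0.21), and Fdxr and Por, the reductase that serves Cyp17a1, were not called (Por -0.25, adjusted p = 0.0757).

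Of the other steroid enzymes 7 of 10 measured genes fell, none rose and 3 were not called. Hsd17b1, a reductase of estrone, fell by 2.47 ± 0.26 (SE, adjusted p = 3.2e-09, limma), from 15.7 to 2.02 TPM. Hsd11b2, Hsd17b12 and Hsd17b7 fell by 1.16, 1.07 and 0.84. Hsd11b1, which activates glucocorticoids and is known from adult Leydig cells, was at no more than 2.34 TPM in any juvenile mouse and was not in the gene table.

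The receptors of Leydig hormones moved apart. Rxfp2, the receptor of Insl3, rose from no more than 0.11 TPM in any mouse of 8 dpp to 7.20 TPM on average at 18 dpp (log2 change 2.80 ± 0.32, SE, adjusted p = 1.3e-08, limma). Esr2, an estrogen receptor, fell by 0.64, and Esr1 and Gper1 were not called. In the group of luteinizing hormone signalling and transcription 7 of 9 measured genes fell, led by Gata4 (-1.86), Gata6 (-1.66), Ptgds (-1.38) and Nr4a1 (-1.16), and Prlr and Prkaca were not called. Gata4 and Gata6 are also made by Sertoli cells, of whose 10 markers 8 fell and 2 rose. All 6 spermatogonium markers fell too, and 36.3% of all genes did. The part of either cell type in the falls of Gata4 and Gata6 was not tested.

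**Figure D5:**
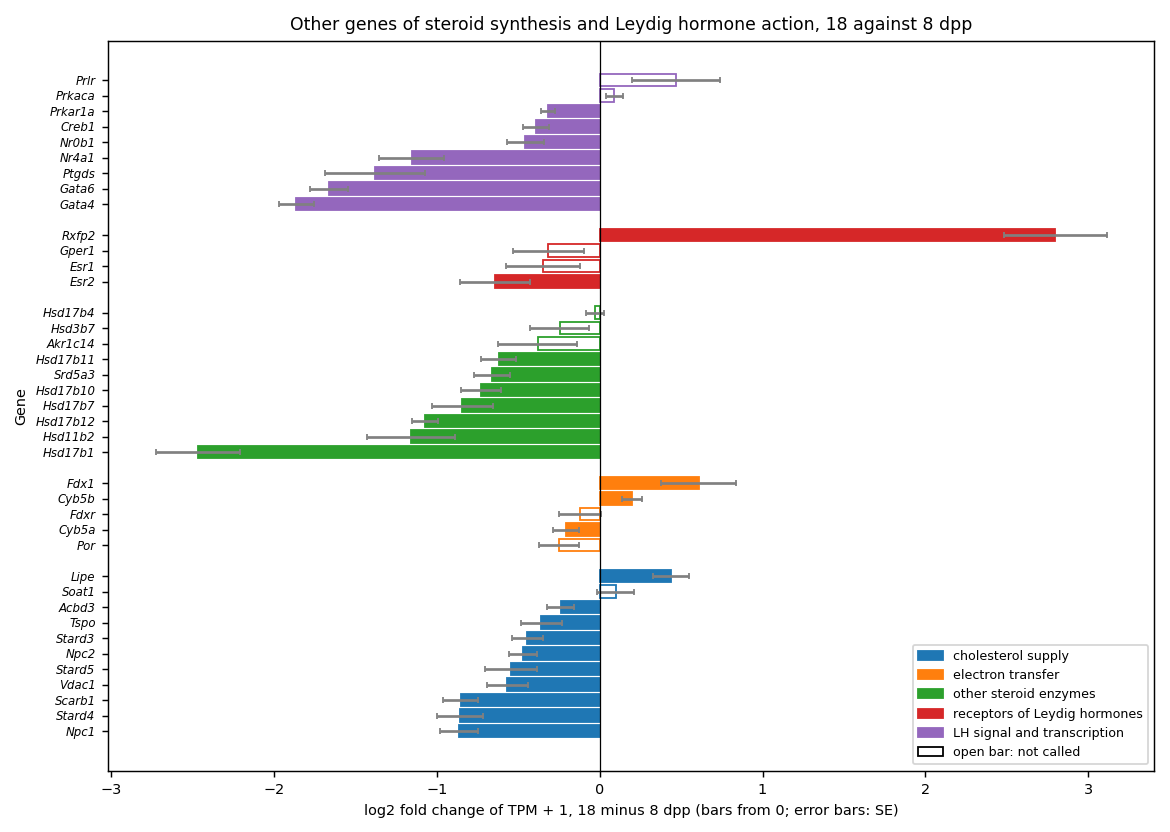
Bars give the log2 fold change of TPM + 1 from 8 to 18 dpp for 39 of the 41 measured genes of the wider list, coloured by role, with SE as error bars; open bars were not called. The 4 called bars to the right are Lipe, Fdx1, Cyb5b and Rxfp2, and 25 called bars are to the left.

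In the adult spermatocyte samples the genes kept separate levels, which are set beside those of 18 dpp without a test because the adult table was deposited apart. Insl3 was at 153, 208, 161 and 183 TPM in the 4 adult samples, 176 ± 24.9 TPM on average (SD, n = 4), overlapping the juvenile mice of 18 dpp. Cyp17a1 was at 27.7, 27.1, 26.1 and 34.2 TPM with each sample a pool of mice, so that its spread cannot be set beside that of single mice. Lhcgr, by contrast, was at 0.20 to 0.45 TPM, a mean 0.0739 times that of 18 dpp, and Nr5a1 was at 4.37 to 7.40 TPM, 0.0794 times. Hsd3b1 was at 4.54 to 10.9 TPM and Hsd3b6 at 7.72 to 12.5 TPM, so that Hsd3b6 made up 58.95% ± 6.13 of both (SD, n = 4). Star averaged 7.38 ± 1.03 TPM, Cyp11a1 13.7 ± 0.941, Srd5a1 4.67 ± 0.406 and Hsd17b3 4.38 ± 0.712 (SD, n = 4). For 7 of the 10 genes every adult sample was below every mouse of 18 dpp; 53.4% of genes in both tables had that order, and Insl3, Cyp17a1 and Hsd17b3 overlapped. The Sertoli list summed to 324 to 475 TPM in the adult samples and the stromal, peritubular, macrophage and endothelial lists to 2.54 to 10.7 TPM, and the stromal list at 249.1 to 569.7 TPM in the mice of 18 dpp. Jak3, which shares sequence with Insl3, was at 4.34 to 5.30 TPM in the adult samples.

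The labelled cell types were checked with marker lists. Spermatogonium markers (led by Uchl1 and Dmrt1) summed to 877 to 933 TPM at 8 dpp and 388 to 566 TPM at 18 dpp, and spermatocyte markers (led by Ldhc and Sycp3) to 198 to 285 and 3268 to 5058 TPM. Spermatid markers (led by Tnp1 and Odf1) reached at most 8.61 TPM in any juvenile mouse and 936 to 1260 TPM in the adult samples. Adrenal cortex markers, which also belong to steroid-making cells, summed to at most 1.42 TPM in any juvenile mouse (Cyp21a1, Mc2r, Cyp11b1 and Cyp11b2). In the adult samples C1qa, Hbb-bs, Hsd11b2, Mc2r and Cyp11b2 were listed at 0.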

How the data were processed

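Poly-A RNA of 28 juvenile and 4 adult samples was sequenced by the authors as 100 base pair paired-end reads, aligned with Bowtie 1.0.0 to transcripts of Ensembl 75 and NONCODE 4 on mm10 and quantified with RSEM 1.2.8. The deposited transcript table and the deposited adult table hold TPM. The deposited juvenile gene table is treated as a score: its values matched exp(log2(TPM + 1)) - 1. The transformation was inverted, after which 20288 of 20368 genes were within 0.2 TPM of the sum of their transcripts in the deposited transcript table and 80 were not. The plan had taken these values as TPM. The authors' estimates per substage were not used. Read numbers are unknown, and intervals from counting cannot be given.

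Genes tested were those of the gene table (those reaching 3 TPM in 1 or more mice). limma 3.58.1 (R 4.3.3) was fitted to log2(TPM + 1) over all 28 mice with 6 ages in 1 model and a variance trend, with Benjamini-Hochberg adjustment over 20368 genes, and folds are on the log2(TPM + 1) scale. Each juvenile replicate is another mouse. The files of no 2 mice were identical, and r between mice of one age was 0.947 to 0.984 across genes, which are not independent replicates. Correlations between mice used age-centred values and 100000 permutations within ages (Python 3.11.15, scipy 1.17.1), where 1e-05 is the smallest p they can give. Adult samples entered no test, since their table was made apart.

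Named were all 10 members; of the wider list at most 4 called genes per role, those with the largest change, and always Rxfp2, Hsd11b1, Tspo, Scarb1, Fdx1 and Por (2 further genes that the rule names are counted but not reported here); the 2 most abundant genes of each marker list and any at 0; and the 10 genes most like the mean of 5 members. Lipe, Esr1, Gper1, Fdxr, Prlr, Prkaca, Rhox5 and Gata1 were named after their values were seen. The members and lists were chosen with earlier results of these data known. Alternatives covered the pseudocount, the filter, the table, the scaling, the variance trend, the mouse number as a block, the mice and ages included, and each mouse left out in turn. Strand use in counting is not given in the sources used here, so reads of overlapping genes may not be told apart.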

Additional observations from a re-analysis of the deposited data

Results flagged for a closer look

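In 5 of the 60 groups of 4 or 5 samples tested (10 genes at 5 juvenile ages and in the adult samples), the highest sample stood apart from the rest by Dixon's criterion, which chance does in about 1 of 20 groups. Star was at 46.6 TPM in mouse 2 of 14 dpp, while the other 4 mice were at 13.3 to 16.7 TPM. At 18 dpp mouse 4 stood apart for both Cyp11a1, at 96.6 TPM against 20.8 to 29.6 TPM, and Cyp17a1, at 107 TPM against 5.19 to 30.9 TPM. Hsd3b1 was at 106 TPM in mouse 1 of 16 dpp against 70.2 to 79.97 TPM, and Hsd3b6 was at 42.7 TPM in mouse 5 of 12 dpp against 10.4 to 13.3 TPM.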

How the results depend on the processing

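The number of members called between 8 and 18 dpp fell from 7 to 4 without a filter on low values, with the replicate block, with mice 1 to 3 against later-numbered mice as a covariate, with mice 1 to 3 only, and with only 8 and 18 dpp in the model, and lay between 4 and 7 when single mice were left out (4 without mouse 1 or 3 of 8 dpp or mouse 4 or 5 of 18 dpp). The lost calls were Lhcgr, Hsd3b1 and Insl3, whose adjusted p in limma ranged over the alternatives from 0.0145 to 0.368, 0.00579 to 0.208 and 0.0117 to 0.451. Without the filter 60085 genes were tested; the cause of the other losses was not tested. Median-of-ratios factors moved the median change of all genes by 0.143, from -0.09 to 0.05, and turned the uncalled changes of Star (to 0.019) and Cyp11a1 (to 0.14) positive; members' changes relative to that median differed by at most 0.03 between scalings. Leaving out single mice moved Cyp11a1 between -0.42 and 0.12, uncalled throughout. Uncalled steps gained a call under 1 to 6 of 38 alternatives for Lhcgr, Nr5a1, Hsd3b1, Hsd3b6 and Insl3. Correlated pairs of members numbered 15, 0 in mice 1 to 3 only and 10 with the replicate block. Replicate numbers name different mice. Over all genes tested, same-numbered mice of different ages did not deviate together (median r 0.0147 over 57 pairs, 3 above 0.1). Differently numbered mice had a median r of 0.000588 over 268 pairs, 15 above 0.1. By set, the median r was 0.0265 between later-numbered mice, 0.00861 between mice 1 to 3 and -0.0128 between mice of different sets. These values do not describe the members alone. Both later-numbered mice were above mice 1 to 3 for Srd5a1 at 10, 12, 16 and 18 dpp, but not at 14 dpp. The covariate of mice 1 to 3 against later lowered the SE of the Hsd3b6 change from 0.455 to 0.355. For Srd5a1 the SE went from 0.235 to 0.169, and it rose for Nr5a1, Star, Cyp17a1 and Hsd17b3. Depth is unknown, so levels near 0, such as Hsd3b6 at 8 dpp, have no counting error.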
